A study of Homo sapiens with 11 samples.

Results

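The Notch genes described here are 10 genes taken by symbol: the ligands JAG1 and JAG2, the receptors NOTCH1, NOTCH2 and NOTCH3, the glycosyltransferases POFUT1, LFNG and MFNG, which modify the receptors, and the target genes HES1 and HEY1. They were chosen for their role in the pathway, with earlier results of these data known, and are 10 of 28395 genes in the count tables. The wider lists used below were chosen in the same way, so shares set beside those of all genes are descriptions. RNA sequencing had been carried out on PC3 and DU145, human prostate cancer cell lines established from metastases, after stable lentiviral transduction. There were 3 libraries of PC3 with negative control lentivirus, 3 of PC3 with ST6GAL1 overexpression, 3 of DU145 with negative control lentivirus and 2 of DU145 with ST6GAL1 overexpression, numbered replicates 2 and 3. Both control groups are labelled Lenti-ORF control, and all 4 groups therefore carried a lentiviral insertion. Libraries are labelled as biological repeats, the sources used here do not say whether repeats came from separate transductions, and p-values measure the spread between these libraries. ST6GAL1 is a Golgi enzyme that adds α2-6 linked sialic acid to N-glycans, and the comparison asks which transcripts differ in level when it is overexpressed.

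Notch signalling passes between neighbouring cells. A JAG or DLL ligand on the surface of a cell binds a NOTCH receptor on another, proteases then cut the receptor, and the freed intracellular domain joins RBPJ and Mastermind proteins in the nucleus to switch on HES, HEY and NRARP genes. POFUT1 adds O-fucose to the EGF repeats of the receptors, and the Fringe enzymes LFNG and MFNG extend it, which alters the response to each ligand. In the prostate the pathway is known for roles in epithelial differentiation, and JAG1 and NOTCH1 are much studied in prostate cancer.

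ST6GAL1 itself was read at 2.71 ± 0.538 normalized CPM, a unit of counts scaled to library size, in the PC3 controls (SD, n = 3), against 32.6 ± 0.814 with overexpression (SD, n = 3), and at 12.9 ± 1.45 (SD, n = 3) and 323 ± 35.2 (SD, n = 2) in DU145. Every overexpression library exceeded every control library of its line. Libraries held 13194485 to 18201359 counts on genes, so that 3 counts, taken as the floor, correspond to 0.165 to 0.227 CPM, a limit that covers counting error only. The 4 epithelial markers were detected in every group (summed level 497 to 1086 CPM), while the androgen target genes KLK3 and KLK2 and the lymphocyte markers CD3E and MS4A1 were at 0 counts in every library. DU145 overexpression replicate 2 stood apart: in the highest of 5 equal groups of genes by GC content, its median log2 difference from the control mean was -0.432, against -0.043 to 0.064 in the other DU145 libraries, and it was 0.141 in the lowest group. Of the members, JAG2, NOTCH1 and NOTCH3 lie in that highest group. The groups leave out genes with few counts, LFNG and MFNG among them, but the GC content of these 2 is in its range. JAG2, NOTCH1, NOTCH3, LFNG and MFNG have a GC content of 59.6% to 64.1%, so their DU145 changes are given with and without this library.

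Regulatory sequences are shown for JAG1 and NOTCH3, the members that changed in DU145, and for HES1, NRARP and HES4, targets of the pathway. Each is 250 bases before to 50 bases after the gene's start, from RefSeq (GRCh38.p14), and capitals mark TGGGAA, the core of the sequence that RBPJ binds. Both strands were searched, and the longer form GTGGGAA always contains the core. HES1 is at chr3:194135898-194136197 on the plus strand, JAG1 at chr20:10673950-10674249, NOTCH3 at chr19:15200946-15201245, NRARP at chr9:137302222-137302521 and HES4 at chr1:1000048-1000347, the last 4 on the minus strand.
JAG1: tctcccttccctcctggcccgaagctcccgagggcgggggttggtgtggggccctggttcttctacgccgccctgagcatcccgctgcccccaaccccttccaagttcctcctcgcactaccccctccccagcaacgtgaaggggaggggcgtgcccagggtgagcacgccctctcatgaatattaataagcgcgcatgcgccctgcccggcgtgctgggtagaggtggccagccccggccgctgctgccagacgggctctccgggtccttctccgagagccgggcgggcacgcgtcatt
NOTCH3: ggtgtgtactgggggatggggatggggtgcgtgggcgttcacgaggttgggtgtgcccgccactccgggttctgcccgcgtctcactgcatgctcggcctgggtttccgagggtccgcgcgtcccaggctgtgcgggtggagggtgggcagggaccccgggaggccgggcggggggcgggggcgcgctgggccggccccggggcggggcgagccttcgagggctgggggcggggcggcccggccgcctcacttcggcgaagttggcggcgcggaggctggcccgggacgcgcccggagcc
HES1: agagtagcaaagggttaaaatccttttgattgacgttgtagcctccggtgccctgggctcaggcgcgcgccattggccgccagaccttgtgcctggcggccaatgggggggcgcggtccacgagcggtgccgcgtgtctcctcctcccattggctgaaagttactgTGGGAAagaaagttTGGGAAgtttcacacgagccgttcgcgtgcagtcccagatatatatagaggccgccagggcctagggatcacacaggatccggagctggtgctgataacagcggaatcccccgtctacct
NRARP: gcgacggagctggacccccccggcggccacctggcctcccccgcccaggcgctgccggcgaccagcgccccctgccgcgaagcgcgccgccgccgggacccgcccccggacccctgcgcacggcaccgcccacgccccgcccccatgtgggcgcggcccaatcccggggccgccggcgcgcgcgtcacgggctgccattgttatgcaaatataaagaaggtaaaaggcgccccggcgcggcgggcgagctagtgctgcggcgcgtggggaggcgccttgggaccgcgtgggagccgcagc
HES4: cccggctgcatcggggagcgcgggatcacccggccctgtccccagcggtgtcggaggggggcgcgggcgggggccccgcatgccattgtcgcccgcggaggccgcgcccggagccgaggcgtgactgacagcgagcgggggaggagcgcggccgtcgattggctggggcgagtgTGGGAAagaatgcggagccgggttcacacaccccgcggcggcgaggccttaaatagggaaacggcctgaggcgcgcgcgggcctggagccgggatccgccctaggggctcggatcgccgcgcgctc

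TGGGAA occurred 2 times in the HES1 window, starting 84 and 70 bases before the start, and 1 time in that of HES4, 76 bases before it. The first HES1 copy and the HES4 copy were also GTGGGAA. The windows of JAG1, NOTCH3 and NRARP held neither form, nor did that of HES7, a further target. Those of JAG2, NOTCH1, NOTCH2 and POFUT1 also held neither, and that of LFNG held 1 TGGGAA on its minus strand. Of 35116 promoter windows of this length, 24% held TGGGAA and 6.25% held GTGGGAA. Windows were found for 8 of 10 members, all but HEY1 and MFNG.

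The first question was how much of each member the 2 lines carry without overexpression. Levels per length are in normalized CPM per kb of exon. In PC3 control cells JAG1 stood highest at 37.2 ± 0.688 (SD, n = 3), followed by HES1 at 33.0 ± 0.207 and POFUT1 at 29.0 ± 1.35 (SD, n = 3 for each). NOTCH2 came next at 9.58, then JAG2 at 5.47, NOTCH1 at 3.39, HEY1 at 2.33, NOTCH3 at 1.31, LFNG at 0.725 and MFNG at 0.164. The ranges of neighbours in this order did not overlap in the 3 control libraries. In DU145 control cells the order was POFUT1 at 24.5 ± 0.256, JAG2 at 6.87 ± 0.995, NOTCH2 at 5.98 ± 0.354, HES1 at 3.21 ± 0.427 and NOTCH3 at 3.18 ± 0.316 (SD, n = 3 for each). Below them stood NOTCH1 at 0.987, LFNG at 0.432, JAG1 at 0.327, MFNG at 0.181 and HEY1 at 0.061. JAG2 and NOTCH2 overlapped, as did HES1 and NOTCH3, and the other neighbours did not. With the longest transcript as the length, NOTCH2 stood above JAG2 and LFNG overlapped JAG1.

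The lines differed most in JAG1, the ligand with the highest level in PC3. JAG1 counts were 6059, 5499 and 5394 in the PC3 control libraries and 37, 52 and 45 in the DU145 control libraries. This is a log2 difference, DU145 minus PC3, of -6.83 (standard error 0.0756, edgeR adjusted p = 2.58e-23). HEY1 gave 255, 190 and 186 counts against 7, 5 and 3 (log2 difference -5.21). HES1 was read at 67.9 to 68.5 CPM in PC3 and 5.68 to 7.44 CPM in DU145 (log2 difference -3.36). Thus both targets among the members and the ligand JAG1 were lower in every DU145 control library than in every PC3 control library. NOTCH1 was also lower in DU145, with a log2 difference of -1.79, while NOTCH3 was higher, with a log2 difference of 1.27 (edgeR adjusted p = 2.22e-09). In all, 5 of 10 members had both an adjusted p under 0.05 and a log2 difference over 1 in either direction, against 46.3% of the 14952 genes tested. By the same rule, of 8 tested HES and HEY genes with NRARP, HES1 and HEY1 included, 5 were lower in DU145 and 2 higher. HES7 was at a mean of 0.325 CPM in the PC3 controls and 6.45 CPM in the DU145 controls. NOTCH2 (-0.68), LFNG (-0.74) and POFUT1 (-0.24) passed the adjusted p alone, and JAG2 (0.33) and MFNG (0.14) did not. The lines come from separate tables, and any difference in how these were made cannot be told apart from the line.

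**Figure D1:**
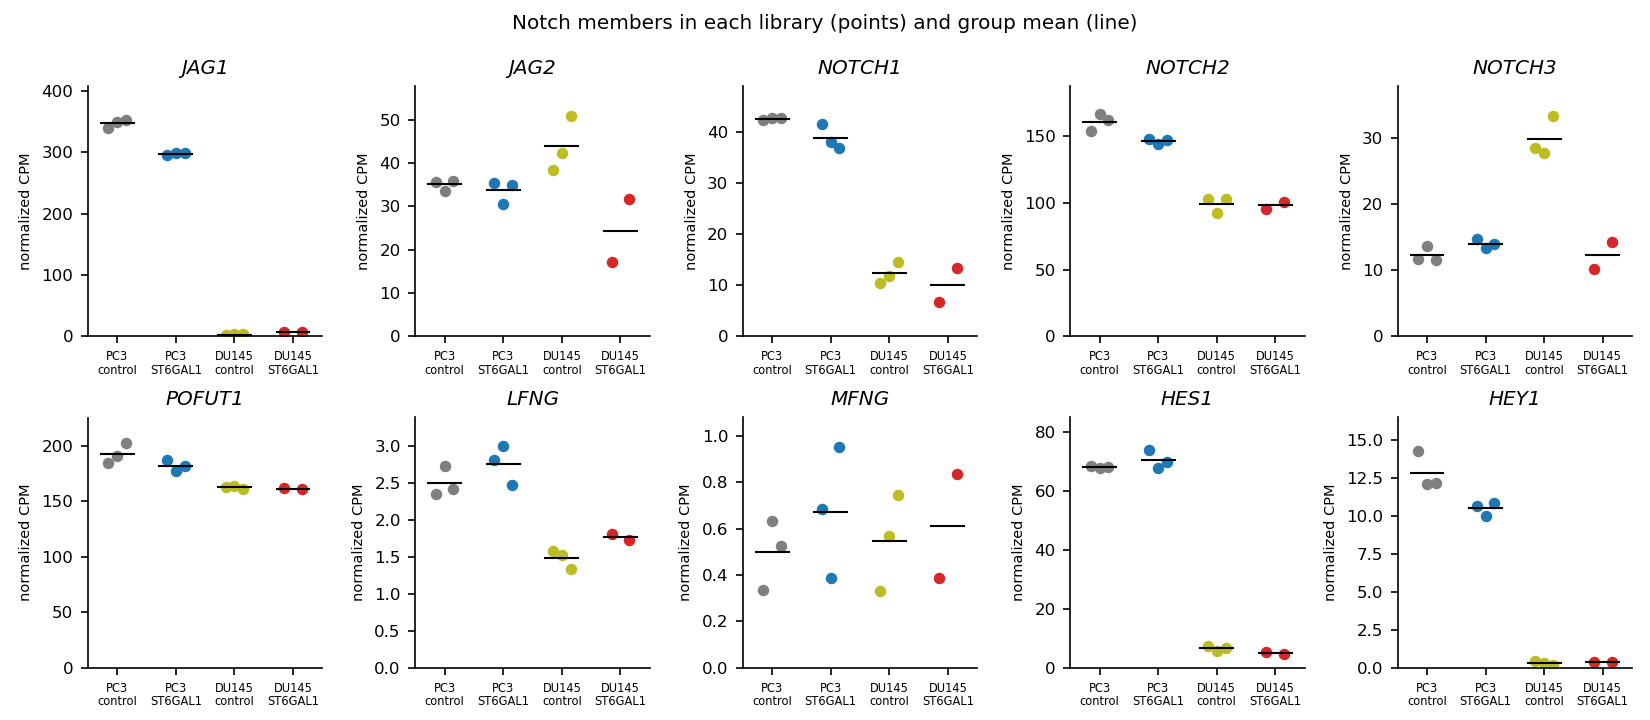
Normalized CPM (y axis, from 0) of the 10 members in each library (points) with the group mean (line), in PC3 and DU145 control and ST6GAL1 overexpression cells (x axis). In DU145 the JAG1 points rise from 2.44 to 3.36 CPM in control cells to 7.05 and 7.30 CPM, and those of NOTCH3 fall from 27.7 to 33.2 CPM to 10.2 and 14.3 CPM.

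The main question was whether the members differed with ST6GAL1 overexpression. In PC3 none of the 10 members was called, the rule being an adjusted p under 0.05 and a log2 fold change beyond 0.58 in either direction, against 5.38% of all 13544 genes tested. By the adjusted p alone 5 of 10 passed, where 37.3% of all genes did. All 5 were lower with overexpression, as were 18.5% of all genes. JAG1 and NOTCH2 passed with any library left out, while NOTCH1, POFUT1 and HEY1 did not, with edgeR adjusted p up to 0.193 (without overexpression replicate 3), 0.307 (without control replicate 3) and 0.129 (without control replicate 1). In DU145 2 of 9 members tested were called, JAG1 higher and NOTCH3 lower, against 8.94% of 13676 genes by the same rule and 20.1% by the adjusted p alone. The median log2 fold change of the members tested was -0.07 in PC3 and -0.02 in DU145, and that of all genes was -0.00 in each line. In bulk RNA, fewer cells with a transcript and less of it per cell cannot be told apart.

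JAG1 (chromosome 20, 10637684 to 10673999, minus strand, GRCh38) encodes a transmembrane ligand of NOTCH receptors. In PC3 its level was 339, 349 and 353 CPM in control cells and 295, 299 and 299 CPM with overexpression. Every overexpression library lay below every control library, and the log2 fold change was -0.22 (standard error 0.0268, edgeR adjusted p = 8.58e-09), under the fold threshold. In DU145 the counts were 37, 52 and 45 in control cells and 109 and 131 with overexpression. The level rose from 3.03 ± 0.511 CPM (SD, n = 3) to 7.17 ± 0.173 CPM (SD, n = 2), and the log2 fold change was 1.25 (95% interval 0.89 to 1.61, edgeR adjusted p = 2.7e-04). By the adjusted p JAG1 moved in opposite directions in the 2 lines, and the raised level in DU145 remained far below that of PC3. The difference between the 2 changes was itself past the test, at 1.46 on the log2 scale (edgeR adjusted p = 1.42e-07). Without DU145 overexpression replicate 2 the change was 1.26, and the 50 nearest tested genes on the chromosome had a median of 0.06. An antisense lncRNA overlaps JAG1 exons in the annotation, and the strand setting used for counting is not given in the sources used here.

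JAG2 (chromosome 14, 105140995 to 105168776, minus strand) encodes the other Jagged ligand. Its PC3 levels were 35.6, 33.6 and 35.9 CPM in control and 35.4, 30.6 and 35.0 CPM in overexpression cells, which overlap (log2 fold change -0.06). In DU145 it was at 38.3, 42.3 and 50.8 CPM in control cells and at 17.1 and 31.6 CPM with overexpression. Both overexpression libraries lay below the controls, but they differed from each other, and the log2 fold change of -0.84 (95% interval -1.42 to -0.25) had an edgeR adjusted p of 0.137. Without replicate 2 it was -0.47 (edgeR adjusted p = 0.0221), without replicate 3 -1.35 (edgeR adjusted p = 4.24e-06), and with the GC trend of each library removed -0.54 (edgeR adjusted p = 8.29e-04). JAG2 lies among genes of high GC content, at 64.1%, and its 35 nearest tested neighbours had a median of -0.16. A lncRNA on the same strand overlaps JAG2 exons in the annotation and was not matched to a counted gene.

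Among the receptors, NOTCH3 (chromosome 19, 15159038 to 15200995, minus strand) changed most. In DU145 it gave 431, 439 and 445 counts in control cells and 157 and 256 with overexpression. The level was 29.8 ± 2.99 CPM (SD, n = 3) against 12.2 ± 2.90 CPM (SD, n = 2), with no overlap. The log2 fold change was -1.28 (standard error 0.150, edgeR adjusted p = 9.93e-05), which corresponds to 0.413 of the control level. It was -1.07 without replicate 2 (edgeR adjusted p = 1.29e-05), -1.55 without replicate 3, and -1.0 with the GC trend removed, so it kept its call in each. Its 50 nearest tested genes had a median of -0.13. In PC3 NOTCH3 read 11.7, 13.7 and 11.6 CPM in control and 14.7, 13.3 and 14.0 CPM in overexpression cells, which overlap (log2 fold change 0.18, edgeR adjusted p = 0.0986). The changes of NOTCH3 in the 2 lines differed by -1.46 on the log2 scale (edgeR adjusted p = 5.84e-06). With overexpression, NOTCH3 in DU145 was at 10.2 and 14.3 CPM, the first below and the second within the 11.6 to 14.7 CPM of the PC3 libraries.

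NOTCH1 (chromosome 9, 136494433 to 136546048, minus strand), a receptor mutated in T cell leukaemia, was read in PC3 at 42.4, 42.7 and 42.6 CPM in control and 41.5, 38.0 and 36.8 CPM in overexpression cells. All 3 overexpression libraries were lower, by a log2 fold change of -0.14 (edgeR adjusted p = 0.0374). In DU145 it stood at 10.5, 11.8 and 14.6 CPM against 6.66 and 13.4 CPM. These overlap, and the log2 fold change was -0.28 with both libraries (95% interval -0.89 to 0.34), 0.12 without replicate 2 and -0.88 without replicate 3. NOTCH2 (chromosome 1, 119911553 to 120069662, minus strand) was at 154 to 167 CPM in PC3 control and 144 to 148 CPM in overexpression cells, a log2 fold change of -0.14 (edgeR adjusted p = 9.85e-04). In DU145 its log2 fold change was -0.02 (95% interval -0.17 to 0.14). NOTCH2 shares near-identical sequence with the NOTCH2NL genes. In sum, 3 of these were counted at 13.5 to 22.8 CPM in PC3 and 1.14 to 2.39 CPM in DU145. How reads shared between these genes and NOTCH2 were counted is not given in the sources used here. The size of any error in the NOTCH2 values is therefore not known.

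**Figure D2:**
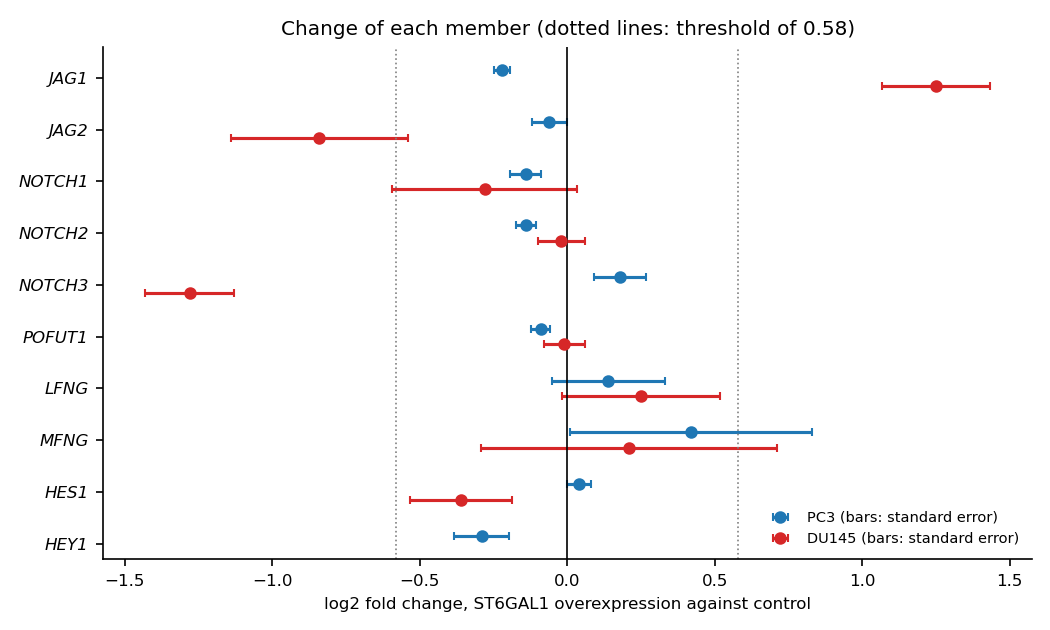
Log2 fold change of each member (y axis), overexpression against control (x axis), in PC3 (blue) and DU145 (red), with bars of 1 standard error and dotted lines at the threshold of 0.58. JAG1 (1.25) and NOTCH3 (-1.28) were called in DU145, JAG2 (-0.84) lay past the fold threshold but not the adjusted p, and HEY1 was not tested there.

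The 3 glycosyltransferases showed no call in either line. POFUT1 (chromosome 20, 32207880 to 32238658, plus strand), the O-fucosyltransferase, was at 185 to 203 CPM in PC3 control and 177 to 187 CPM in overexpression cells, which overlap (log2 fold change -0.09, edgeR adjusted p = 0.0347). In DU145 it was the steadiest member, at 161 to 164 CPM in control cells and 161 and 162 CPM with overexpression (log2 fold change -0.01, 95% interval -0.15 to 0.13). LFNG (chromosome 7, 2512529 to 2529177, plus strand) gave 37 to 54 counts in PC3 libraries and 18 to 31 counts in DU145 libraries, with log2 fold changes of 0.14 and 0.25. The DU145 value was 0.21 without replicate 2 and 0.52 with the GC trend removed (edgeR adjusted p = 0.186). MFNG (chromosome 22, 37469063 to 37486384, minus strand) gave 5 to 15 counts in every library. At that depth its 95% intervals, -0.38 to 1.22 in PC3 and -0.78 to 1.19 in DU145, would hold changes of more than the fold threshold in either line. Its DU145 log2 fold change was 0.21, and 0.61 without replicate 2 and 0.36 with the GC trend removed.

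Of the targets, HES1 (chromosome 3, 194136148 to 194138732, plus strand), a transcriptional repressor, was read in PC3 at 68.5, 67.9 and 68.0 CPM in control and 73.7, 67.8 and 69.8 CPM in overexpression cells, a log2 fold change of 0.04 (95% interval -0.04 to 0.13). In DU145 it was at 7.44, 5.68 and 6.64 CPM in control cells and 5.43 and 4.85 CPM with overexpression. Both overexpression libraries lay below the controls, with a log2 fold change of -0.36 (95% interval -0.70 to -0.02) that did not pass the test (edgeR adjusted p = 0.168). HES1 did not pass before adjustment either, although its interval, a normal approximation, lies wholly on the negative side. Its changes in the 2 lines differed by -0.41 (edgeR adjusted p = 0.0523), which passed in 3 of 19 alternatives: without DU145 control replicate 2 (-0.51, 0.018), with the GC trend removed (-0.44, 0.0252) and with at least 10 counts in every library (0.0473). HEY1, a related repressor, was at 14.3, 12.1 and 12.2 CPM in PC3 control and 10.7, 10 and 10.9 CPM in overexpression cells. No overexpression library reached a control library, and the log2 fold change was -0.29 (standard error 0.0926, edgeR adjusted p = 0.0107). In DU145 it gave 7, 5 and 3 counts against 6 and 7, too few for the test.

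The wider pathway was taken from lists of 70 genes, of which 69 were in the tables. In PC3 59 were tested: 11 were higher and 13 lower by the adjusted p, and 1 was called, HES2 (log2 fold change -0.60), which lost its call without control replicate 1 (-0.52) or overexpression replicate 3 (-0.56). In DU145 64 were tested: 12 were higher and 9 lower by the adjusted p, and 4 were called higher and 7 lower. The medians were 0.04 and -0.03. Of all genes, 5.38% were called in PC3 and 37.3% passed the adjusted p, and 8.94% and 20.1% did so in DU145. Among the other HES and HEY genes with NRARP, 3 of 6 tested were called in DU145, all lower, with a median of -0.88. With the members HES1 and HEY1 added, this was 3 of 7 with a median of -0.62, beside -0.00 for all genes. Of the 3 called, HES4 lost its call with the GC trend removed. HES2, HES4, HES7 and NRARP, among others of these genes, have a GC content of 57.5% to 73.9%. DU145 overexpression replicate 2 read genes of high GC content lower (median -0.432 in the highest group). The medians were not recalculated without this library, and its part in them was not tested.

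NRARP, a small protein made on Notch activation that restrains the pathway, was at 6.92, 7.33 and 8.28 CPM in DU145 control cells and 3.17 and 2.39 CPM with overexpression (log2 fold change -1.44, edgeR adjusted p = 1.16e-04). HES7 gave 82, 99 and 103 counts against 34 and 35 (log2 fold change -1.63, edgeR adjusted p = 1.14e-04). Both kept their calls without replicate 2 (-1.65 and -1.72) and with the GC trend removed (-1.28 and -1.35). HES4 was called at -1.14 (edgeR adjusted p = 0.0261), but its GC content is 73.9%. It lost the call without replicate 2 (-0.75), with the GC trend removed (-0.59) and with DESeq2 (adjusted p = 0.0639). The call was also lost without control replicate 2 (-1.06) and without control replicate 3 (-1.04). In PC3 NRARP had a log2 fold change of -0.26 (edgeR adjusted p = 0.0232), which ranged from -0.39 (without overexpression replicate 1) to -0.16 (without overexpression replicate 2, edgeR adjusted p = 0.238) and also did not pass without control replicate 1, control replicate 3 or overexpression replicate 3, or with DESeq2 (adjusted p = 0.118). HES4 was at 0.10 in PC3, and HES7 had too few counts for the test. The changes of all 3 differed between the lines, by -1.18 for NRARP, -2.10 for HES7 and -1.24 for HES4 (edgeR adjusted p = 7.75e-04, 0.0108 and 0.00336). That of HES7 was lost without PC3 overexpression replicate 2 (-1.78, edgeR adjusted p = 0.0846).

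**Figure D3:**
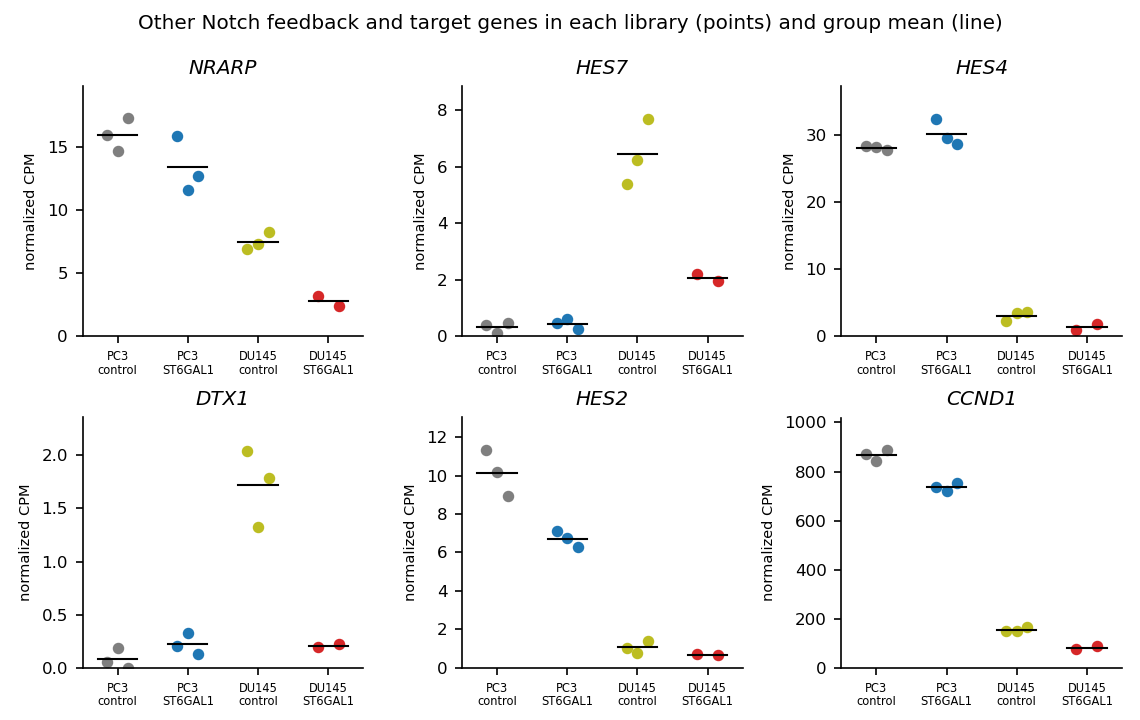
Normalized CPM (y axis, from 0) of NRARP, HES7, HES4, DTX1, HES2 and CCND1 in each library (points) with the group mean (line) for the 4 groups (x axis). In DU145 both overexpression libraries lie below the 3 control libraries for each of these genes, and the change of HES2 there did not pass the test.

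Among the endocytosis genes and ubiquitin ligases of the pathway, 1 of 13 tested was called higher and 2 lower in DU145, where 8.94% of all genes were called in either direction. DTX1, a Deltex ligase and a described Notch target, gave 31, 21 and 24 counts in control cells and 3 and 4 with overexpression, a ratio of 0.122 with a 95% counting interval of 0.0476 to 0.265 (edgeR adjusted p = 3.6e-04). NEURL1B fell by 0.61 on the log2 scale, from 43.2 to 48.1 CPM to 27.4 and 31.9 CPM. It dropped below the fold threshold without overexpression replicate 2 (-0.51), without control replicate 3 (-0.58) and with the GC trend removed (-0.47). NEURL1 gave 3, 1 and 1 counts against 13 and 12, a ratio of 6.65 with a 95% counting interval of 2.50 to 22.2 (edgeR adjusted p = 0.00815). NEURL1 lost its call without control replicate 2 (edgeR adjusted p = 0.0649) and with DESeq2 (adjusted p = 0.0686). In every DU145 control library NEURL1 was at or below the floor of 3 counts. It passed the count filter there only through the overexpression libraries, and DTX1 only through the control libraries. Both calls therefore rest on a group with few or no counts above the floor. Of the corepressors, TLE2 was called at -0.71 (edgeR adjusted p = 0.0206), with 54.7 to 58 CPM against 27.0 and 41.5 CPM. TLE2 lost its call without overexpression replicate 2 (-0.45), with the GC trend removed (-0.39) and without each control library in turn (-0.74, -0.73 and -0.70).

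No gene of the protease list, the other EGF repeat glycosyltransferases, the transcription complex or the other ligands was called in either line. GXYLT1, which adds xylose to O-glucose on EGF repeats, was at -0.24 and -0.32 (edgeR adjusted p = 6.5e-04 and 0.0275), and the DU145 value did not pass without overexpression replicate 3 or without any 1 of the 3 control libraries (edgeR adjusted p up to 0.107). MAML2, a Mastermind coactivator, was at 0.51 in PC3 (edgeR adjusted p = 8.98e-12). RBPJ, the DNA-binding partner of the receptors, is named after its values were seen: it was at 0.47 in DU145 (edgeR adjusted p = 9.61e-04), equal to the median of its 50 nearest tested genes, 0.47. DLL3, a divergent ligand, was at -0.55 in DU145 (edgeR adjusted p = 0.0687).

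Of 5 genes described as Notch targets in other cells, 3 were called higher and 1 lower in DU145, where 8.94% of all genes were called in either direction. SNAI2, a transcription factor of epithelial to mesenchymal transition, rose by a log2 fold change of 2.01, from 13, 8 and 9 counts to 43 and 49. CDKN1A, a cell cycle inhibitor, rose by 0.81, and CCND1, a G1 cyclin, was at -0.92 with 150 to 167 CPM against 75.3 and 89.3 CPM. SOX9 rose by 0.65 (edgeR adjusted p = 0.0352). It lost its call without overexpression replicate 2 (0.63), without control replicate 2 (0.46), without control replicate 3 (edgeR adjusted p = 0.108) and with DESeq2 (adjusted p = 0.161). In PC3 SNAI2, CDKN1A and CCND1 had log2 fold changes of -0.41, -0.34 and -0.23, with edgeR adjusted p of 0.00235, 6.1e-04 and 2.64e-10. CDKN1A and SNAI2 thus had opposite signs in the 2 lines, and that of SNAI2 in PC3 did not pass without overexpression replicate 2 (-0.28, edgeR adjusted p = 0.0627). SOX9 rose in PC3, from 213 to 228 CPM in control cells to 256 to 269 CPM with overexpression. Its log2 fold change there was 0.23 with DESeq2 (adjusted p = 5.76e-09), under the fold threshold, so its sign was the same in both lines.

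Across both lines, the changes of 2 of 10 members, JAG1 and NOTCH3, differed by the interaction test, where 19.7% of all 14952 genes did. The profile of JAG1 over the 11 libraries was most like those of DANCR, WDR77 and DCAF4, each with a Pearson r of 0.999, and that of NOTCH3 was most like those of EXTL3 (0.980), SLC25A1 (0.976) and SLC13A5 (0.965). These are descriptions over libraries that share line and depth, and for JAG1 the likeness is to a difference between the lines.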

How the data were processed

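Per the labels and the methods of the study, mRNA libraries (TruSeq Stranded mRNA) gave 75 bp single reads, which went through Cutadapt, HISAT2 (hg38) and featureCounts. The unnormalized counts that the authors deposited cover 28395 Entrez genes, in 1 table per line. The annotation and strand setting for counting are not given in the sources used here. Symbols came from RefSeq (97.7% matched), and lengths and GC content from GENCODE.

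Each line was fitted separately with edgeR 4.0.16 in R 4.3.3 (filterByExpr, TMM, robust quasi-likelihood test, Benjamini-Hochberg adjustment over all genes tested), and the 11 libraries jointly for differences between lines. Levels are CPM with TMM factors. The 95% intervals of log2 fold changes are normal approximations from the standard error. With so few libraries they are narrower than the quasi-likelihood test allows. Depth was 13194485 to 18201359 counts per library, with a biological coefficient of variation of 0.0226 (PC3) and 0.0817 (DU145). No pair of replicates agreed within sampling noise.

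Members and lists were chosen with earlier results of these data known. Named genes were the members, ST6GAL1, up to 4 called genes of each wider list in either line (or the gene with the smallest adjusted p where none was called), and the 3 genes most like the member with the smallest adjusted p in each line. Some genes that the rule names are not reported here. RBPJ, and the markers at 0 counts, were added after their values were seen. Alternatives were limma-voom (limma 3.58.1), DESeq2 1.42.0, other factors and filters, no fold threshold, the replicate number as a block, each library left out and, chosen after the data were seen, removal of each library's GC trend. The scripts were tested on simulated data. Replicate numbers were checked for pairing by the correlation of deviations between libraries. In PC3 it was 0.05, 0.07 and 0.01 for same-numbered libraries and -0.07 to 0.02 for the rest. In DU145 it was 0.17 and 0.45 for the 2 numbers shared and -0.45 to 0.37 for the rest. The 2 overexpression libraries there deviate from their mean in mirror image, so the check cannot decide pairing in DU145. The numbers were not taken as pairs.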

Additional observations from a re-analysis of the deposited data

Results flagged for a closer look

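The effect of overexpression differed between the lines for 14 genes named by the rule, by the interaction test over 11 libraries (edgeR adjusted p under 0.05), where 19.7% of all genes passed. Each value is the DU145 change minus the PC3 change on the log2 scale. Among the members these were JAG1 (1.46) and NOTCH3 (-1.46). Among the wider lists they were DLL3 (-0.65), DTX1 (-4.38), NEURL1B (-1.17), NEURL1 (2.55), TLE2 (-1.17), HES7 (-2.10), NRARP (-1.18), HES4 (-1.24), CCND1 (-0.69), CDKN1A (1.14) and SNAI2 (2.41). DLL3 did not pass in 14 of 19 alternatives. In DU145, DTX1 with overexpression and NEURL1 in control cells gave only 1 to 4 counts per library. ST6GAL1 itself differed by 1.06. DU145 overexpression replicate 2 reads genes of high GC content lower, and with the GC trend of each library removed DLL3 (-0.29) was the only one of the 14 that no longer passed. Of the members, JAG1 ranged from 1.28 to 1.54 and NOTCH3 from -1.75 to -1.14 over all alternatives.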

How the results depend on the processing

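JAG1 and NOTCH3 kept their calls in DU145 under every alternative run (JAG1 1.08 to 1.31, NOTCH3 -1.55 to -1.0). With no fold threshold, 5056 genes and 5 members were called in PC3 and 2747 genes in DU145. Leaving out each library gave 830 to 2072 genes and 2 to 4 members in DU145 and 2287 to 5161 genes and 2 to 4 members for the interaction, the highest each time without DU145 overexpression replicate 3. With the GC trend removed, 4 members were called for the interaction, JAG2 and HES1 in addition to JAG1 and NOTCH3. With at least 10 counts in every library, 4175 genes were called between the lines, a filter that tests fewer genes. Reversed values were all of uncalled changes: with a library left out, JAG2 in PC3 ranged from -0.10 to 0.01, and in DU145 NOTCH1 from -0.88 to 0.12, NOTCH2 from -0.09 to 0.01 and MFNG from -0.47 to 0.61. For the interaction NOTCH1 ranged from -0.76 to 0.26 and MFNG from -0.91 to 0.19, and between the lines MFNG from -0.12 to 0.41. The replicate block turned NOTCH2 (0.01) and MFNG (-0.11) in DU145, and GC removal turned NOTCH1 in the interaction (0.19, and 0.09 with the block). The cause was not tested. The replicate block, for numbers that were not taken as pairs, called 740 genes in PC3, 1517 in DU145 and 3551 for the interaction. It added JAG2 (-0.98) in DU145. limma-voom also called JAG2 (-0.88). In PC3 NOTCH1, POFUT1 and HEY1 did not pass with DESeq2, with adjusted p above 0.05 (0.153, 0.108 and 0.0825). Depth limits MFNG in both lines and HEY1 in DU145, and DU145 overexpression has 2 libraries.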
